A study of Mus musculus with 24 samples.

Results

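Chromatin accessibility was compared between Daxx-KO and Daxx-WT KLS cells, the c-Kit+ Lin- Sca-1+ fraction of the bone marrow that holds the stem cells and multipotent progenitors of the blood, 3 weeks post induction (w.p.i.) of Cre. The members were the libraries titled by KLS cells, this time point and a Daxx allele, without a Pu.1 allele, 5 of the 24 ATAC-seq libraries of the series. ATAC-seq marks open chromatin by the sites at which Tn5 transposase inserts sequencing adaptors. The 3 Daxx-KO libraries came from mice with the genotype Daxx F/F Cre +/-, and the 2 Daxx-WT libraries from mice with the genotype Daxx +/+ Cre +/-, so both groups carried Cre and both were treated for its induction. All mice are labelled C57BL/6, and the methods give only a usual range of ages at treatment, with no age for the mice of these libraries. The floxed allele places Daxx exons 2 to 7 between LoxP sites, and its methods describe C57BL/6N floxed mice crossed with C57BL/6J Cre mice, without naming the Cre line of these libraries, the substrain of each mouse or whether a library holds 1 mouse. The methods call the replicates of the genomic assays biological, and p-values measure the spread between these libraries.

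Daxx is a chaperone of the histone variant H3.3. With Atrx it deposits H3.3 at heterochromatin and repeats, and it resides in PML nuclear bodies. Stem and progenitor cells keep regulatory elements of several blood lineages accessible, and factors such as Pu.1 and RUNX1 bind many of these elements before the lineages separate. An accessible element lets such a factor reach its DNA motif, but accessibility alone does not say that the nearest gene is transcribed.

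The sequences that the comparison turned on are shown first, for accessible elements near genes named below. Each is 200 bases of mm10, forward strand, around the summit of a KLS peak that lies inside a site past the test described below, and each was chosen after its values were seen. Capitals mark the motif matches listed after each name.
Ccnd3 intron, higher in Daxx-KO, Pu.1 motif GAGGAAGT in 2 places, chr17:47531637-47531836: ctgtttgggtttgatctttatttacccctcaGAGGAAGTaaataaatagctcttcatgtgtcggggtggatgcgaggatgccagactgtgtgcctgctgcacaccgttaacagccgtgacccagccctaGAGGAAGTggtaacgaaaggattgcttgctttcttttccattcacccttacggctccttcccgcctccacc
Ccnd3 intron, higher in Daxx-KO, RUNX motif (reverse strand) and E-box CAGCTG, chr17:47542137-47542336: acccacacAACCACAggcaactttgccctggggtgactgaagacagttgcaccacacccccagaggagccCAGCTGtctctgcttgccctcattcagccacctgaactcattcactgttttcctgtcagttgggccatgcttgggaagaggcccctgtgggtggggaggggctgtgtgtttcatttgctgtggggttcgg
Tent5c upstream, lower in Daxx-KO, C/EBP motif, chr3:100534526-100534725: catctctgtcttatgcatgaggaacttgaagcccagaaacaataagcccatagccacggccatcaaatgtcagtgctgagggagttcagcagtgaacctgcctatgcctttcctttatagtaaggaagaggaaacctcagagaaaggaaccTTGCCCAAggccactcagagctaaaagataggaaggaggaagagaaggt
Anapc1, lower in Daxx-KO, AP-1 motif, chr2:128680775-128680974: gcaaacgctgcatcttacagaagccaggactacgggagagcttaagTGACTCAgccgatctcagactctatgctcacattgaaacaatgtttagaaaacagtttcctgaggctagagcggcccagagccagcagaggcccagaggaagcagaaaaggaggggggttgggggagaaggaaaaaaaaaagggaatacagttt

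The deposited table lists 17311 sites, which the authors had already selected for a difference between these same 5 libraries among 407030 windows of 600 bp. Its values are scaled reads, the reads of a library in a site divided by a constant for that library. A site was called higher or lower by the sign of log2((mean Daxx-KO + 1)/(mean Daxx-WT + 1)), whatever its test, and within peaks where it overlapped a peak of the Daxx-KO or the Daxx-WT KLS list by at least 1 bp. limma was fitted to log2(scaled reads + 1), with Benjamini-Hochberg adjustment over all 407030 windows. Each standard error below is that of the fitted difference, and a site rose or fell only where its adjusted p was below 0.05. Because the sites were chosen on these libraries, neither a low p nor groups that do not overlap is independent evidence of a difference.

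Reads over Daxx itself were the check of the labels. Daxx lies at chr17:33909414-33915590 on the forward strand and has 8 exons. A site at chr17:33909601-33912700, which reaches from the intron before the floxed part over exons 2 to 5, held 54.6, 90.1 and 61.2 scaled reads in Daxx-KO replicates 1 to 3 against 255 and 295 in Daxx-WT. It fell by 1.99 on the log2 scale (SE 0.23, limma adjusted p = 7.22e-05). The site over exons 6 and 7, chr17:33913451-33914950, held 13.4, 7 and 9.41 scaled reads in Daxx-KO against 88.5 and 53.9 in Daxx-WT cells, a log2 ratio of -2.72 (SE 0.35, limma adjusted p = 0.000407). All 3 Daxx-KO libraries were therefore low over the floxed exons, with reads remaining in each, and the labels matched the deletion.

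KLS identity was checked by promoter peaks, within 1 kb of a start site, in the peak lists of the KLS cells. Of 6 KLS markers, Kit, Cd34, Flt3 and Mecom had such a peak in Daxx-WT cells, and Procr joined them in Daxx-KO cells. Ly6a, which encodes Sca-1, had none in either list. Among 14 markers of cells removed by the gate, 2 had a promoter peak in Daxx-WT cells, Itgam among them, and 3 in Daxx-KO cells, where Itgax was added. The defining B cell genes Cd79a and Ms4a1, the T cell genes Cd3e, Cd4 and Cd8a, and the granulocyte genes Ly6g and S100a8 had no promoter peak in either list. In bulk libraries a site open in a larger share of the cells and a site more open in each cell cannot be told apart.

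Most listed sites were lower in Daxx-KO cells and lay outside peaks, while the higher sites lay mainly within peaks. Within peaks, 2118 sites (12.2% of those listed) were higher and 1356 (7.83%) lower. Outside peaks, 1190 (6.87%) were higher and 12647 (73.1%) lower. The sites higher within peaks were strong elements, with a median of 81.3, 101 and 85.6 scaled reads for the Daxx-KO libraries, against 45.6 and 47 for Daxx-WT. By contrast, the sites lower outside peaks had a median of 13.4, 8.75 and 10.4 scaled reads for Daxx-KO, against 27.4 and 28.7 for Daxx-WT, and 63.1% of them had a mean below 20 over the libraries.

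**Figure D1:**
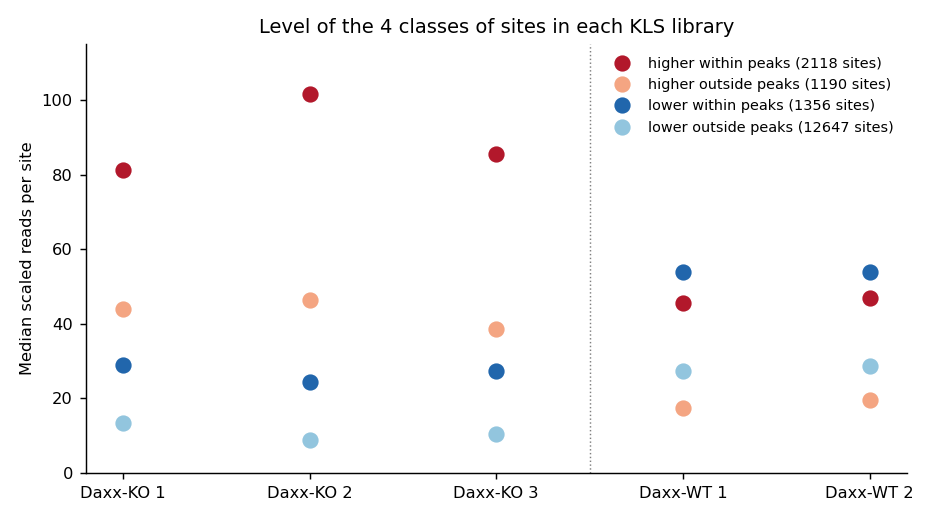
Median scaled reads per site (vertical axis, starting at 0) in each of the 5 KLS libraries (horizontal axis), with a point for each of the 4 classes of site. Sites higher within peaks had medians of 81.3 to 101 in Daxx-KO and of 45.6 to 47 in Daxx-WT libraries, and those lower outside peaks had medians below 30 in every library.

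The test passed 593 sites, of which 392 rose and 201 fell. This excess of risen sites among those passed held only under some settings, although most listed sites were lower. With a pseudocount of 5, 2233 higher and 9024 lower sites passed, with voom weights on recovered reads 2383 and 8992, and with adjustment over the listed sites alone 3268 and 13999. In the main test, the 392 risen sites were 0.0963% of the windows and the 201 fallen sites 0.0494%. Of the risen sites, 247 lay within peaks and 145 outside, and of the fallen sites, 30 lay within peaks and 171 outside. At an unadjusted p below 0.05, 17267 of the 17311 sites passed, which follows from how the table was made. The Daxx-KO and Daxx-WT libraries did not overlap at 17234 sites, 99.6% of those listed, so that non-overlap does not set a site apart here. The count rested on every Daxx-KO library. It was 0 without Daxx-KO replicate 1, 4 without replicate 2 and 0 without replicate 3, against 481 and 530 without Daxx-WT replicate 1 and 2.

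The scaling of the libraries moved with the direction of the sites. Before scaling, the mean reads per window were 8.13, 4.54 and 5.59 across the Daxx-KO libraries, against 8.36 and 7.49 for Daxx-WT, and after it they were 9.03, 3.98 and 5.27 against 7.6 and 8.61. Daxx-KO replicates 2 and 3 were therefore below both Daxx-WT libraries, and Daxx-KO replicate 1 above them. With each library divided by its mean reads per window instead, the median log2 ratio of all listed sites moved up by 0.48, from -1.24 to -0.76, and 22 sites turned from lower to higher, 20 of them within peaks. The test then passed 115 sites, 109 higher and 6 lower, in place of 392 and 201. Most listed sites stayed lower, but the list had been selected under the deposited scaling. It cannot show which sites the other scaling would have listed, so the excess of lower sites was not tested by this. The size of a single lower ratio depended on the scaling, and the part of scaling in it was not tested.

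Within peaks, the largest higher ratios mostly belonged to distal elements that were low in Daxx-WT cells. The site with the smallest p in the table lay in an intron, at chr1:82685851-82687650. The nearest start, 28.6 kb away, was an alternative start of Col4a3, which encodes a basement membrane collagen. The site lay upstream of this start but downstream of another Col4a3 start. It held 203, 202 and 243 scaled reads in Daxx-KO against 32.8 and 22.9 in Daxx-WT cells, a log2 ratio of 2.91 (SE 0.22, limma adjusted p = 3.46e-07). The start nearest to another intronic site, chr3:109822351-109823850, was that of Vav3, which encodes an exchange factor for small GTPases. The site lay 249 kb downstream of it, and the gene that holds the intron was not identified here. It held 127, 171 and 146 against 31.9 and 16.1 (log2 ratio 2.58, limma adjusted p = 9.39e-06). In neither did a Daxx-KO library come near the Daxx-WT range.

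A site within 1 kb of an annotated start site and 18.6 kb downstream of that of Cdk5rap1, which encodes a tRNA-modifying enzyme, chr2:154353251-154354950, held 197, 139 and 99.7 scaled reads in Daxx-KO against 7.3 and 30.9 in Daxx-WT cells (log2 ratio 2.86, limma adjusted p = 9.47e-05). Snapc3 encodes a subunit of the complex that activates small nuclear RNA genes. The site 9.8 kb upstream of its start, chr4:83407101-83408650, had the tightest libraries of this group, with 155, 159 and 150 against 26.4 and 28.7 (log2 ratio 2.45, limma adjusted p = 3.25e-06). Olfr1378 and Olfr1226, which encode olfactory receptors, had sites within 3 kb of their starts with log2 ratios of 2.54 and 2.43. Of the 10 sites with the largest ratios, the other ones lay nearest to A430005L14Rik (2.44), 4933412E24Rik (2.36), Kcna4 (3.72) and Als2cr12 (2.57). All 10 passed the test. The Kcna4 and Als2cr12 sites consisted for 57.4% and 76.3% of 32-base words that occur more than once in the genome, and their reads are uncertain.

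The sites that were lower within peaks with the largest ratios were largely near-identical copies. A site 95.8 kb from 5730507C01Rik, at chr12:18609301-18611450, held 34.5, 16.6 and 19.8 scaled reads in Daxx-KO against 240 and 163 in Daxx-WT cells, and 3 sites assigned to Asap2 on the same chromosome had log2 ratios of -3.02, -2.75 and -1.89. Between 59.7% and 91.4% of the words of these 4 sites occur more than once in the genome. Zfp951 (log2 ratio -2.20, 56.2% of words repeated) and Speer4d (-1.93, 73.5%) were of the same kind, so the reads of all 6 could have come from another copy. All 6 passed the test.

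Among sites of mostly unique sequence, the site nearest to Tcp10c, chr17:13478351-13481150, fell, with 52.3, 15.8 and 76.2 scaled reads in Daxx-KO against 219 and 194 in Daxx-WT cells (log2 ratio -2.08, limma adjusted p = 0.00459). Gsdmc, a member of the gasdermin family, had a log2 ratio of -2.0 and Mctp2 of -1.82, and neither passed the test (limma adjusted p = 0.119 and 0.105). Of the 30 sites that fell within peaks, 15 had more than 50% of their words repeated, against 16 of the 247 that rose.

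The other fallen sites within peaks lay near genes of varied function. A site 45.5 kb upstream of Tent5c, chr3:100534101-100535500, held 33.4, 30.6 and 35.8 scaled reads in Daxx-KO against 86.7 and 92.8 in Daxx-WT cells (log2 ratio -1.41, limma adjusted p = 0.0121). At Anapc1, which encodes a subunit of the anaphase-promoting complex, the site chr2:128680401-128681850 held 43.4, 34.1 and 46.1 against 95.8 and 91.7 (log2 ratio -1.17, limma adjusted p = 0.0404). Fallen sites also lay at Drosha, the nuclease that begins microRNA processing (-1.5), and Sec61a1, a subunit of the protein channel of the endoplasmic reticulum (-1.40). Osr1 (-1.30), Mpeg1, a macrophage perforin (-1.31), and Cd69, an early activation antigen of leukocytes (-1.07), completed those with a known product named here. These genes were named after their values were seen.

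**Figure D2:**
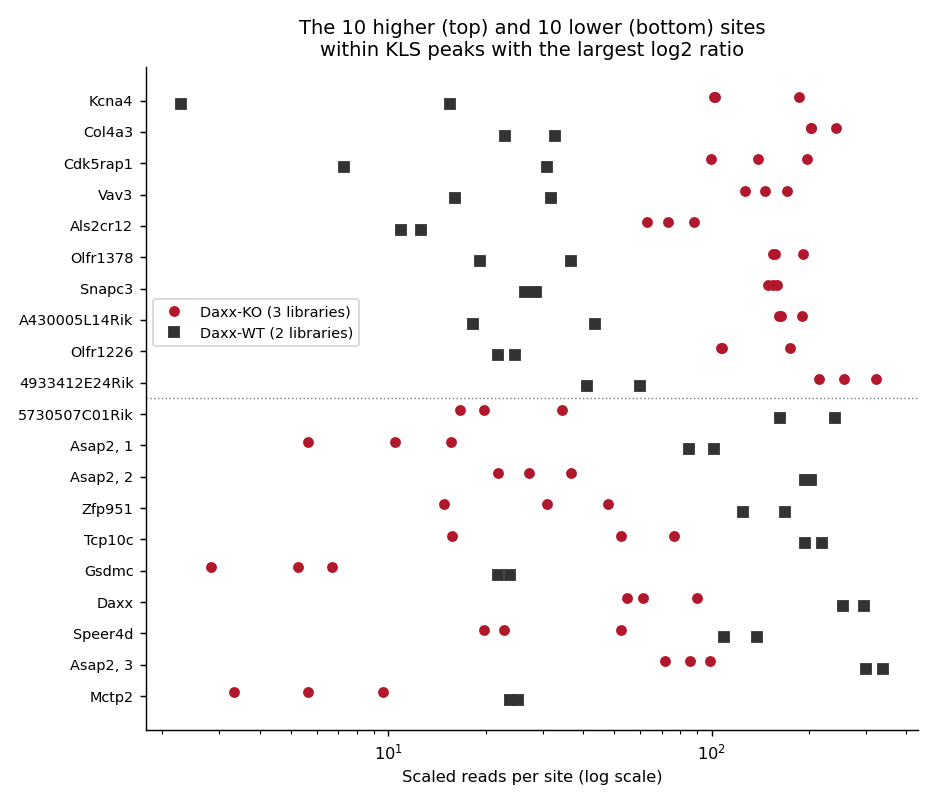
Scaled reads (horizontal log axis) in the 3 Daxx-KO libraries (circles) and the 2 Daxx-WT libraries (squares) at the 10 higher and the 10 lower sites within KLS peaks with the largest log2 ratio, each row named by the nearest protein-coding gene; the 3 Asap2 sites are numbered by size. The libraries of the 2 groups do not overlap in any row because only such sites could be chosen. Col4a3 runs from 202 to 243 in Daxx-KO against 22.9 and 32.8 in Daxx-WT.

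Higher and lower sites occupied their peaks differently. The summit of the strongest overlapping peak lay inside the site for 1782 of the 2118 higher sites (84.1%) and for 339 of the 1356 lower sites (25%). At least 50% of the site was in a peak for 1924 higher sites (90.8%) and for 516 lower sites (38.1%). Most lower sites called within peaks were therefore edges or flanks of a peak and most higher ones its centre. Of the higher sites, 1282 overlapped only the Daxx-KO list, 828 both lists and 8 only the Daxx-WT list. Of the lower sites, 253 overlapped only the Daxx-KO list, 770 both and 333 only the Daxx-WT list. The Daxx-KO list is the longer, with 44694 intervals against 33325, and was called on 1 more library.

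Outside peaks, the largest higher ratios were those of sites near Emb, Chst3, Kcnj3, Cux1 and Gm9747. Chst3 encodes a sulfotransferase of chondroitin. A site 18.1 kb downstream of its start, chr10:60170251-60171050, held 52.3, 50.7 and 20.7 scaled reads in Daxx-KO against 3.65 and 9.17 in Daxx-WT cells (log2 ratio 2.51, limma adjusted p = 0.0094). The site nearest to Kcnj3, an inward rectifier potassium channel gene, rose by 2.35 on the log2 scale (limma adjusted p = 0.0278), and that nearest to Gm9747 by 2.32 (limma adjusted p = 0.00181). The Emb site passed as well (2.79), but 74.4% of its words occur more than once in the genome. Cux1, which encodes a homeodomain factor, had 25.6, 24.5 and 17.9 against 7.3 and 0, and missed the threshold (limma adjusted p = 0.0689).

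Except at Unc93a, the lower sites outside peaks with the largest ratios had few reads in every library. The largest ratio, at Grm7, rested on 2.23, 2.62 and 0 scaled reads in Daxx-KO against 21.9 and 22.9 in Daxx-WT cells and did not pass the test (log2 ratio -3.16, limma adjusted p = 0.302). Igfbp7 (-2.89), Vsig10 (-2.85) and Mycn (-2.83) had like levels and limma adjusted p of 0.226, 0.157 and 0.115. Unc93a held 13.4, 5.25 and 1.88 scaled reads in Daxx-KO against 48.4 and 87.1 in Daxx-WT cells. It fell (log2 ratio -3.13, limma adjusted p = 0.00231), with 84.1% of the words of its site repeated in the genome. The fallen sites of unique sequence with more reads included 1 upstream of Plcb4, a phospholipase C gene, at chr2:135723601-135725050. It held 15.6, 15.8 and 16 scaled reads against 69.3 and 63, a log2 ratio of -2.0 (limma adjusted p = 0.00158). This gene was named after its values were seen.

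Promoters, within 1 kb of a start site, made up 20.8% of the sites higher within peaks and 36.4% of those lower within peaks. Outside peaks the shares were 13.4% and 16.6%. Each was below the 45.3% of all Daxx-WT KLS peaks. Higher sites within peaks were instead intergenic in 40.1% and intronic in 32.5% of cases.

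DNA motifs also differed in frequency between the classes. The search covered 100 bp on each side of the summit, or of the centre of a site outside peaks, on both strands. Pu.1 was read as GAGGAAGT, and RUNX as TGTGGTT. The blood factors of the GATA family were read as AGATAA and the stress factor AP-1 as TGANTCA. C/EBP was read as TTGCNNAA, and the interferon response element ISRE as GAAANNGAA. CTCF, which shapes chromatin loops, was read as AGGGGGC, and the E-box of basic helix-loop-helix factors as CAGCTG. A base could count for more than 1 motif. The RUNX motif occurred at 19.7% of sites higher within peaks, 8.33% of those lower within peaks and 9.52% of all Daxx-WT KLS peaks. For the E-box the shares were 26.4%, 15.2% and 14.7%. The Pu.1 motif was found at 10.1%, 6.64% and 7.28%. RUNX, E-box and Pu.1 letters were thus more frequent in the higher class than in the lower one and in all peaks.

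The GATA motif had the opposite order, with 6.7% of higher and 10.4% of lower sites within peaks against 6.65% of all peaks. CTCF letters were at 5.1% of higher and 10.2% of lower sites, beside 10.6% of all peaks. AP-1 was found at 9.87% and 10.1%, C/EBP at 7.37% and 8.63%, and ISRE at 8.59% and 6.78%, so these differed little between directions. Since lower sites were mostly edges, the shares were taken again for the sites that hold the summit, a choice made after the data were seen. RUNX was then at 20.8% of higher and 7.96% of lower sites, the E-box at 26.9% and 16.2%, Pu.1 at 10.3% and 3.24%, and GATA at 7.13% and 10.9%. Away from promoters, RUNX was at 21.2% of 1678 higher and 10.4% of 863 lower sites and Pu.1 at 11.3% and 8.46%. These shares are descriptions of letters in a window, with no test, and not of binding.

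**Figure D3:**
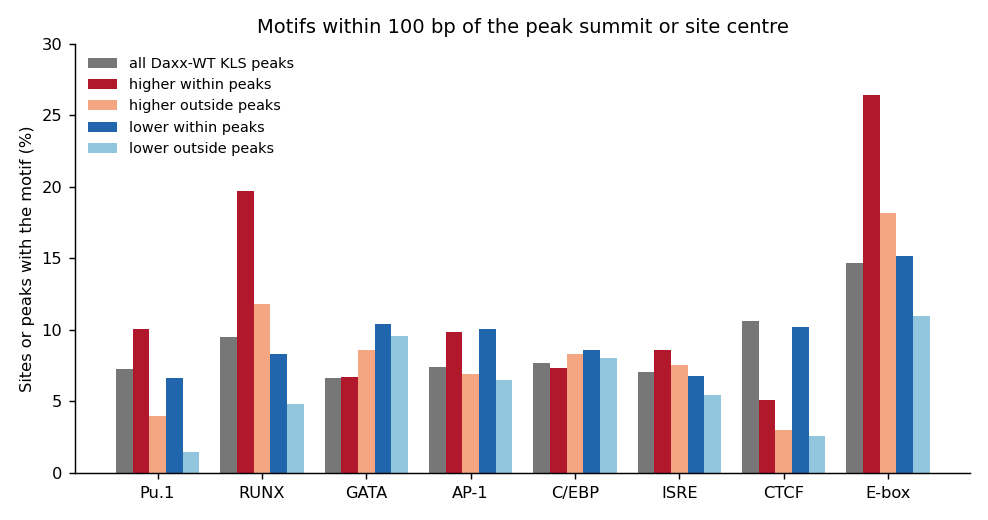
Percent of sites (coloured bars, 4 classes) and of all Daxx-WT KLS peaks (grey bars) that hold each motif within 100 bp of the peak summit or site centre. The RUNX bar of sites higher within peaks reaches 19.7% and the E-box bar 26.4%, beside 9.52% and 14.7% of all peaks.

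The higher and the lower class within peaks also stood apart in the other populations of the series. LT-HSCs are long-term haematopoietic stem cells, and CMPs and GMPs are the common myeloid and granulocyte-monocyte progenitors that arise from them. Of all Daxx-WT KLS peaks, 97.7% overlapped a Daxx-WT LT-HSC peak, 92.1% a CMP peak and 85.8% a GMP peak. The sites lower within peaks had 91.3%, 66.9% and 57.4%, and those higher within peaks 67.5%, 74.6% and 61.3%. Peaks present in LT-HSCs and not in CMPs covered 27.4% of lower and 10.5% of higher sites, beside 7.12% of all Daxx-WT KLS peaks and 10% of all Daxx-KO KLS peaks. Conversely, peaks present in CMPs and not in LT-HSCs covered 17.6% of higher and 2.95% of lower sites, beside 1.58% and 4.88%. Among sites with the summit inside, the share in LT-HSCs and not CMPs was 10% of higher and 35.4% of lower sites, and the share in CMPs and not LT-HSCs 19.6% and 2.95%. These lists were called in other libraries with other numbers of peaks, and no test was made.

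**Figure D4:**
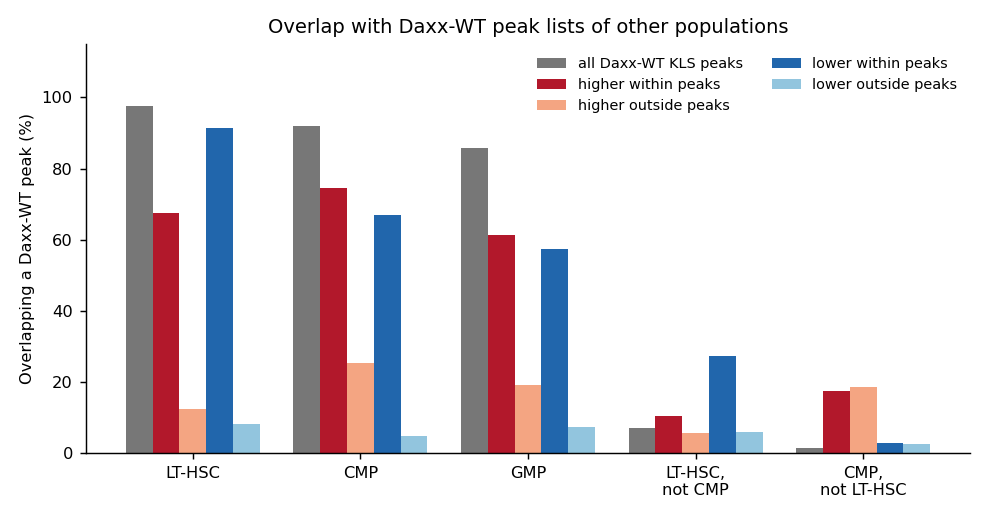
Percent of sites in each of the 4 classes, and of all Daxx-WT KLS peaks (grey), that overlap a Daxx-WT peak of LT-HSCs, CMPs or GMPs, or of LT-HSCs and not CMPs, or of CMPs and not LT-HSCs, by at least 1 bp. In the group of LT-HSC peaks absent from CMPs the lower sites within peaks reach 27.4%, and in the group of CMP peaks absent from LT-HSCs the higher sites within peaks reach 17.6%.

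Sites were assigned to the protein-coding gene with the nearest start site within 100 kb. Of 21911 genes, 1515 (6.91%) had a site higher within peaks, 889 (4.06%) a site higher outside peaks, 1112 (5.08%) a site lower within peaks and 6956 (31.7%) a site lower outside peaks. Among the 15627 genes with a KLS peak assigned, the shares were 9.67%, 5.36%, 7.04% and 41.1%. Genes with many peaks or long surroundings can hold more sites, so each list below is given beside its median number of Daxx-WT KLS peaks per gene, which was 1 over all genes. Counts are descriptions without a test of the list, and no site of a list turned direction under the other scaling except 1 of the granulocyte and monocyte genes. A list has 1 site or more per gene, and the median log2 ratio of all listed sites was -1.24. In every list, sites lower outside peaks were the most numerous class.

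Sites within peaks near B lymphoid genes were higher in Daxx-KO cells without exception. Of 24 such genes, with a median of 0.5 peaks, 7 (29.2%, beside 6.91% of all genes) had a site higher within peaks and 0 had a lower one. Among them were Ebf1 and Pax5, which commit cells to the B lineage, Il7r, the receptor of the lymphoid growth factor IL-7, Dntt, which adds bases to antigen receptor junctions, Bach2 and Btla. The median log2 ratio of the 28 sites of the list was 0.85, the only list with a median above 0, and the 11 lower sites among them all lay outside peaks. Of these 28 sites, 1 passed the test, and it rose.

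The sites of the named B lymphoid genes did not pass. At the Ebf1 promoter, the site held 89.1, 136 and 83.7 scaled reads against 57.5 and 45.9 (log2 ratio 0.98, limma adjusted p = 0.0785). The Pax5 site 0.1 kb from the start held 60.1, 67.4 and 64 against 35.6 and 28.7 (0.97, limma adjusted p = 0.0774). The site in an exon of Dntt held 110, 133 and 85.6 against 55.6 and 57.3 (0.94, limma adjusted p = 0.0763). Btla, an inhibitory receptor of lymphocytes, had a log2 ratio of 1.17 (limma adjusted p = 0.0739). The libraries of the groups did not overlap at these sites, but this held for 99.6% of all listed sites and does not set them apart. Pax5 and Dntt had 3 and 4 sites, all higher. Of other genes on the list, Cd79a and Ms4a1 had no promoter peak in either KLS list, and Cd79b had a site higher outside peaks.

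Among 20 T and NK lymphoid genes (median 2 peaks), 6 (30%) had a site higher within peaks and 1 (5%), the T cell factor gene Tcf7, a lower one. The higher sites lay near Notch1, Zap70, Klrb1c, Thy1, Ets1 and Lef1. The largest ratios were at Lef1 (1.13), Thy1 (0.94), Zap70 (0.76) and Ets1 (0.73), and at the Thy1 site 105, 127 and 103 scaled reads in Daxx-KO stood against 55.6 and 59.6. Outside peaks, however, 10 of the 20 genes (50%) had a lower site, Notch1, Zap70, Klrb1c and Ets1 among them, so that 14 of the 24 sites were lower and the median log2 ratio of the list was -1.12. None of the 24 sites passed the limma test. All 24 had an unadjusted p below 0.05, as did 17267 of all 17311 listed sites. With voom weights on reads recovered from the table, limma passed 15 of them, beside 11375 of all listed sites.

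Haematopoietic stem cell regulators had sites in both directions, 12 higher and 69 lower. Of the lower ones 61 lay outside peaks, at 18 of the 25 genes (72%), and the median log2 ratio of the list was -1.14. Within peaks the counts were closer. Of 25 genes, with a median of 3 peaks, 4 (16%) had a site higher within peaks (Runx1, Erg, Fli1 and Mecom) and 7 (28%) a lower one (Meis1, Hoxb4, Mecom, Hlf, Mycn and Kit among them). Only 2 of the 8 lower sites, against 5 of 5 higher sites, held the summit of the peak. Fli1, an ETS factor of stem cells and megakaryocytes, held 193, 196 and 194 scaled reads at its largest higher site and 100.3 and 105 in Daxx-WT cells (log2 ratio 0.91, limma adjusted p = 0.0604). Runx1, whose motif is the one counted above, held 93.5, 125 and 78.1 against 48.4 and 55 at its higher site (0.92, limma adjusted p = 0.087), and its 5 other sites were lower and outside peaks.

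Kit, the stem cell factor receptor used in the gate, had 6 sites, all lower, with log2 ratios of -1.39 to -1.01. The site within a peak, 96 kb from its start, held 16.7, 11.4 and 8.47 scaled reads against 27.4 and 34.4 (limma adjusted p = 0.105). Mecom, which encodes the stem cell factor Evi1, had a largest lower ratio within peaks of -1.22, and Hlf, a stem cell factor of the PAR bZIP family, of -0.99 at a promoter (limma adjusted p = 0.104 and 0.0742). Of the 81 sites of the list, 1 passed the test, and it fell.

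Granulocyte and monocyte genes (32, median 2 peaks) had a site higher within peaks for 5 genes (15.6%), Cebpb, Irf8, Klf4, Ltf and Fcnb, and a lower one for 3 (9.38%), Gfi1, Klf4 and Csf2ra. A site lower outside peaks was found for 18 genes (56.2%). Of the 38 sites of the list 31 were lower, with a median log2 ratio of -1.20. Irf8 directs monocyte and dendritic cell fate, and had 2 higher sites, both within peaks, and 1 lower site outside peaks (log2 ratio -1.70). Its largest site within peaks held 65.7, 168 and 78.1 scaled reads in Daxx-KO against 32.8 and 56.2 in Daxx-WT cells (log2 ratio 1.21, limma adjusted p = 0.0907). Fcnb, a granule ficolin gene, had the same ratio (1.21, limma adjusted p = 0.0542), and Ltf, a granule protein gene, 0.86. Klf4, a factor of monocyte differentiation, had a higher site (1.24) and a lower one (-1.31). Spi1, which encodes Pu.1, had 2 sites, both lower and outside peaks, with log2 ratios of -1.17 and -1.06 (limma adjusted p = 0.145 and 0.133). Only 1 site of the list passed, over the promoter of the cathelicidin gene Camp, and it fell (39.0, 15.8 and 27.3 against 62.9 and 104, log2 ratio -1.58, limma adjusted p = 0.0313).

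Erythroid and megakaryocyte genes (20, median 1 peak) had 0 genes with a site higher within peaks and 2 (10%) with a lower one. These were Zfpm1, the cofactor of GATA1 (log2 ratio -0.82), and Vwf, an adhesion protein gene of platelets (-0.83). Outside peaks, a site near the globin gene Hbb-bs had a log2 ratio of -1.64. None of the 20 sites passed the limma test. All 20 had an unadjusted p below 0.05 and 17 passed with voom weights, beside 17267 and 11375 of all 17311 listed sites.

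Cell cycle genes were higher within peaks at 3 of 24 (12.5%, median 3.5 peaks) and lower at 0. A site lower outside peaks was found for 15 (62.5%), and 20 of the 29 sites of the list were lower. Ccnd3, a cyclin that carries progenitors through G1, had 3 sites within peaks in its introns, all higher. The site with the Pu.1 letters printed above, chr17:47530851-47532250, held 175, 225 and 145 scaled reads in Daxx-KO against 75.7 and 88.3 in Daxx-WT cells. It rose by 1.14 on the log2 scale (SE 0.22, limma adjusted p = 0.0378). The site with RUNX and E-box letters, chr17:47541451-47542550, rose by 1.13, from 75.7 and 87.1 to 144, 232 and 164 (SE 0.23, limma adjusted p = 0.0421). E2f3, an activator of S phase genes (0.86), and Btg2, an antiproliferative gene (0.48), had higher sites that missed the threshold. Outside peaks, Cdk6, a kinase partner of Ccnd3, fell by 1.18 (limma adjusted p = 0.0489), and Mki67 had a log2 ratio of -1.63 (limma adjusted p = 0.0742).

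TGF-beta and BMP genes, of which 24 were listed with a median of 3 peaks, had a site higher within peaks for 7 (29.2%) and a lower one for 4 (16.7%). A site lower outside peaks was found for 17 (70.8%), and 37 of the 50 sites of the list were lower. Among the ligands, Tgfb3 had a risen site 36.3 kb downstream of its start, chr12:86041851-86043600, in an intron whose gene was not identified here. It held 133, 200.3 and 120.4 scaled reads in Daxx-KO against 36.5 and 34.4 in Daxx-WT cells (log2 ratio 2.06, SE 0.24, limma adjusted p = 0.000114). Of the receptors, Tgfbr2 rose at a site outside peaks with 121, 111 and 108 against 42 and 61.9 (1.11, limma adjusted p = 0.039), and the co-receptor gene Tgfbr3 had a largest ratio within peaks of -1.25 (limma adjusted p = 0.101). Among the signal transducers, the inhibitory Smad7 rose 80.4 kb upstream of its start with 245, 391 and 291 against 145 and 124 (1.19, limma adjusted p = 0.029). Nearer to its start, Smad7 also had a higher site within peaks (0.95) and a lower one (-1.0). Neither passed (limma adjusted p = 0.0947 and 0.0847). Smad1, which transmits BMP signals, had a log2 ratio of -1.08 (limma adjusted p = 0.104).

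Collagen genes (16, median 0 peaks) had a site higher within peaks for 3 (18.8%) and a lower one for 3 (18.8%). Outside peaks, 7 (43.8%) had a lower site, and 14 of the 18 sites of the list were lower. Col4a3 rose at the site described above and at a site outside peaks, chr1:82608301-82609300, with 47.9, 51.6 and 40.5 scaled reads against 22.8 and 9.17 (log2 ratio 1.49, limma adjusted p = 0.0401). Col6a1 (1.08), Col1a1 (-1.09) and Col5a1 (-0.89) did not pass.

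Interferon-stimulated and RNA-sensing genes did not share a direction within peaks. Of 31 genes (median 2 peaks), 3 (9.68%) had a higher site, Tlr3, Irf1 and Trim25, and 2 (6.45%) a lower one, Trim25 among them. A site lower outside peaks was found for 13 (41.9%), and 30 of the 36 sites of the list were lower. Tlr3, a sensor of double-stranded RNA, held 27.8, 20.1 and 23.5 scaled reads at its promoter site and 7.3 and 9.17 in Daxx-WT cells (log2 ratio 1.43, limma adjusted p = 0.0917). Irf1, an interferon-induced factor, had a log2 ratio of 0.82 (limma adjusted p = 0.12). The site that passed was 14.1 kb from Mx1, an antiviral GTPase gene, and it fell outside peaks with 30.1, 33.2 and 32.9 against 76.6 and 94 (log2 ratio -1.38, limma adjusted p = 0.0165).

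Of 26 inflammatory and NF-kappaB genes (median 2 peaks), 4 (15.4%) had a site higher within peaks and 2 (7.69%) a lower one. The NF-kappaB inhibitor gene Tnfaip3 held 181, 216 and 201 scaled reads in Daxx-KO against 106 and 98.6 in Daxx-WT cells, 89.5 kb upstream of its start (log2 ratio 0.96, limma adjusted p = 0.0537). Il1r1, the receptor of IL-1, had 2 higher sites, the larger at 0.86, while the inhibitor gene Nfkbia had a lower one (-1.03). The subunit gene Nfkb1 had 1 of each, a higher site with 92.4, 99.7 and 106 against 52 and 55 (0.88, limma adjusted p = 0.0762) and a lower site with 26.7, 27.1 and 22.6 against 31 and 69.9 (-0.96, limma adjusted p = 0.266), where 1 Daxx-WT library was near the Daxx-KO level. Of the 26 sites of the list, 17 were lower. AP-1 genes (15, median 4 peaks) had a higher site within peaks at Atf3 alone (6.67%, log2 ratio 0.72), 0 lower, and lower sites outside peaks near Fos (-1.59), Jun (-1.5) and others, 12 of the 15 sites in all. Fos and Fosb also had a site higher outside peaks. None of the 26 and 15 sites of these lists passed the limma test. All 26 and 15 had an unadjusted p below 0.05, as did 17267 of all 17311 listed sites. With voom weights 18 and 10 passed, beside 11375 of all listed sites.

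Genes of H3.3 deposition, PML bodies and silencing (28, median 1 peak) had a site higher within peaks for 1 gene (3.57%), Atf7ip, a cofactor of Setdb1 (log2 ratio 0.95, limma adjusted p = 0.0985). A lower one was found for 2 (7.14%), Daxx and Cabin1, which belongs to the Hira complex (-1.06, limma adjusted p = 0.138). Mphosph8, a reader of H3K9me3 in the HUSH complex, fell outside peaks, with 7.79, 11.4 and 8.47 scaled reads against 32.8 and 36.7 (-1.81, limma adjusted p = 0.0488). In all, 12 genes (42.9%) had a site lower outside peaks, and 31 of the 35 sites of the list were lower. The 3 sites of this list past the test were the 2 of Daxx and that of Mphosph8.

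Wnt genes (24, median 2 peaks) had a site higher within peaks for 3 (12.5%) and a lower one for 2 (8.33%). Lower sites outside peaks belonged to 10 (41.7%), and 18 of the 24 sites of the list were lower. The largest ratios were those of Apc, which promotes decay of beta-catenin (-1.17), of the beta-catenin gene Ctnnb1 (1.05), of Tcf7l1 (0.94) and of the ligand gene Wnt5b (0.69). None of the 24 sites passed the limma test. All 24 had an unadjusted p below 0.05 and 17 passed with voom weights, beside 17267 and 11375 of all 17311 listed sites. Adhesion and homing genes (24, median 3.5 peaks) had 3 (12.5%) in each direction within peaks. Lower sites outside peaks belonged to 15 (62.5%), and 30 of the 37 sites of the list were lower. Itga4, the alpha chain of the integrin VLA-4, fell at a site outside peaks with 32.3, 19.3 and 20.7 against 54.7 and 72.2 (log2 ratio -1.36, limma adjusted p = 0.0458), and its site within a peak had -1.15 (limma adjusted p = 0.12). Cd34 (-1.15), Cd9 (-0.87) and Itga9 (0.86) did not pass.

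The last list holds loci that were shown from these or related samples, which makes it no independent evidence of a direction. Of its 10 matched genes (median 2.5 peaks), 1 (10%) had a site higher within peaks and 1 (10%) a lower one. Outside peaks, 7 (70%) had a lower site, and 17 of the 18 sites of the list were lower. The site 1 kb upstream of Fbp2, which encodes a gluconeogenic enzyme, chr13:62858701-62860150, held 160, 253 and 226 scaled reads in Daxx-KO against 67.5 and 58.5 in Daxx-WT cells. It rose by 1.74 on the log2 scale (SE 0.23, limma adjusted p = 0.000519). Fbp2 also had a lower site outside peaks (log2 ratio -1.27, limma adjusted p = 0.202). At Gfi1, a repressor in stem cells and granulocytes, a site within a peak had a log2 ratio of -0.61 (limma adjusted p = 0.261), and a site outside peaks near Wls, which carries Wnt proteins for secretion, had -1.55 (limma adjusted p = 0.0812).

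**Figure D5:**
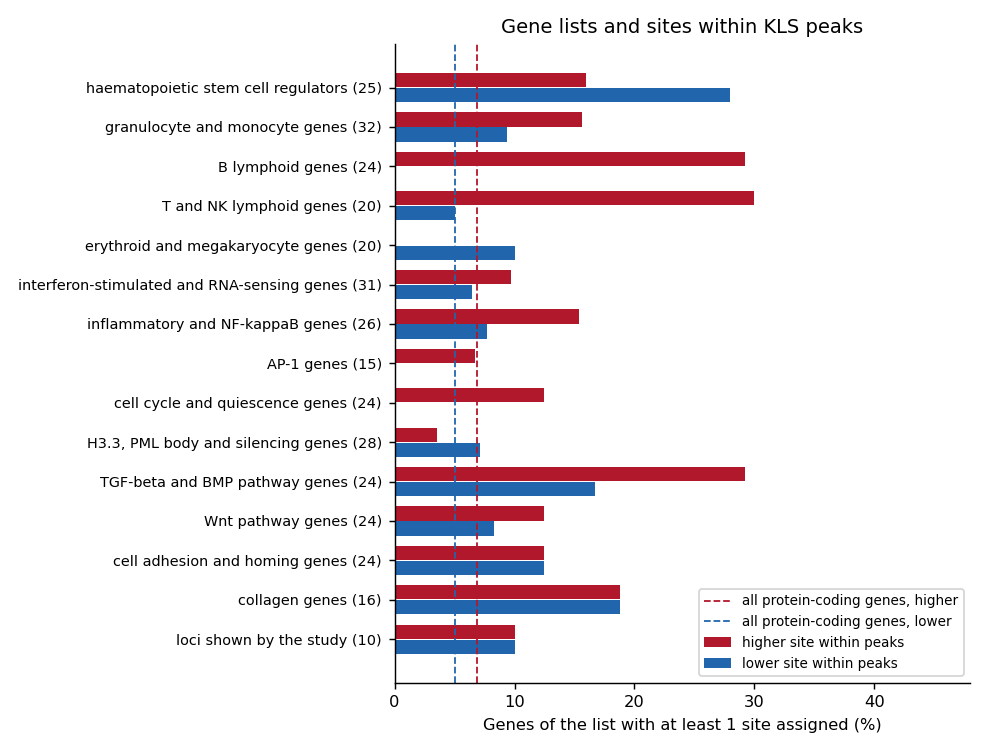
Percent of the genes of each of the 15 lists (number of genes in parentheses) with at least 1 site within KLS peaks that was higher (red bars) or lower (blue bars) in Daxx-KO cells, with dashed lines at the shares of all protein-coding genes. The bars of B lymphoid genes are 29.2% and 0, beside 6.91% and 5.08% of all genes.

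Some genes gathered many sites, mostly of 1 direction. Sorcs2, a sorting receptor gene, had 7 higher sites and 1 lower, 6 of the higher ones within peaks, over 161 kb, with medians of 118, 122 and 108 scaled reads in Daxx-KO against 70.2 and 56.2 in Daxx-WT cells. Chst3 had 6 higher sites and 0 lower, with 3 past the test, and Inpp5d, which encodes the phosphatase SHIP1 of blood cells, had 6 higher and 2 lower. B3gnt2, which also had 2 lower sites, and Ykt6, with 0, followed with 5 higher sites each, a number they shared with 3 other genes. Sites near Ykt6 were of repeated sequence (median 68.7% of words).

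Among lower sites, Gm21149 (16), Gm21190 (15), Gm17019 (15) and Gm10354 (14) lay side by side on chromosome 5, where the window from 15 to 16 Mb alone held 83 lower and 0 higher sites. Between 71.7% and 83.6% of the words of these sites, as medians per gene, occur more than once in the genome, so they cannot be taken as separate loci. Pde4d, a phosphodiesterase of cyclic AMP, had 15 lower sites of unique sequence over 1210 kb (median log2 ratio -1.23) and 2 higher. It also had 27 Daxx-WT KLS peaks. Dnmt3a, the DNA methyltransferase that limits stem cell self-renewal, had 12 lower sites outside peaks and 0 higher, with log2 ratios of -1.45 to -0.84. It was named after its values were seen.

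On chromosome Y, 5 sites were listed and all were higher, at its distal end from position 90734401. The largest, chrY:90740051-90744650, held 1572, 3289 and 2433 scaled reads in Daxx-KO against 422 and 904 in Daxx-WT cells (log2 ratio 1.87, limma adjusted p = 0.0171), and 47.4% of its words occur more than once. The sexes of the mice behind each library are not given in the sources used here, and sex and genotype cannot be told apart at these sites. These sites were singled out after their values were seen.

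LT-HSCs were profiled 3 days post induction (d.p.i.) in 3 Daxx-KO and 2 Daxx-WT libraries that share none with the KLS cells. The methods give RosaCreERT2 mice and tamoxifen for genomic work at 3 d.p.i. For RNA-seq of KLS cells at 3 w.p.i. they give Mx1Cre mice, whose Cre was induced by polyinosinic:polycytidylic acid. Cre line and inducer may thus differ here along with cell type and time, and these cannot be told apart. For LT-HSCs, a like table of selected sites exists. It lists 11927 sites, 29.1% of them higher. Of the KLS sites, 221 higher and 84 lower ones within peaks overlapped a listed LT-HSC site. The LT-HSC site was higher for 182 of the 221 (82.4%) and for 27 of the 84 (32.1%). Outside peaks it was higher for 47 of 60 (78.3%) sites that were higher in KLS cells and for 71 of 328 (21.6%) that were lower there. Only 10.4% of the sites higher within peaks and 6.19% of those lower within peaks were listed in LT-HSCs at all, and the others gave no value there.

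Of the 89 sites picked by the naming rule, 20 were listed in LT-HSCs, 19 of them in the same direction. At the Col4a3 site the LT-HSC libraries held 94, 144 and 156 scaled reads in Daxx-KO against 42.2 and 49.6 in Daxx-WT cells (log2 ratio 1.5), and at the Cdk5rap1 site 209, 278 and 467 against 59.1 and 71 (2.27). At Fbp2 the ratio was 0.57, from 222, 262 and 269 against 153 and 184. Each of these LT-HSC values is given from the lowest to the highest library. The Ccnd3, Tgfb3 and Smad7 sites that passed the test in KLS cells were not listed in the LT-HSC table. Of the other sites described above, those at Mx1 and Drosha, which fell in KLS cells, were higher in LT-HSCs, with log2 ratios of 0.97 and 1.26, and the third Ccnd3 site was lower there (-0.87).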

How the data were processed

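Tagmented DNA of sorted KLS cells was sequenced in 3 Daxx-KO and 2 Daxx-WT libraries. The submitters' processing notes name CASAVA 1.8.4, cutadapt 1.13, STAR 2.5.3, bedtools and the build mm10. Per the file headers, the authors ran diffReps 1.55.6 with windows of 600 bp moved by 50 bp and kept windows with p below 0.0001, so the deposited signal of a site is its reads divided by a constant for each library. All values below 100 reads came out whole (100%, within 0.15) when multiplied back, and intervals on them would cover counting error only. Depth is therefore given as mean reads per window, 4.54 to 8.36 in the 5 libraries. The authors' columns of fold changes and p-values were not used, and neither was their ratio of enrichment over background in the peak lists, except to pick the strongest peak and its summit.

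Peaks of the KLS lists were deposited as IDR conservative sets per genotype, and repeated lines were merged into unique intervals. Sites were joined to the reference of the same build (GRCm38 with GENCODE M21 annotation; chromosome lengths matched), to the nearest protein-coding start within 100 kb, to promoters (within 1 kb), and to the share of 32-base words that recur in the genome. limma 3.58.1 (R 4.3.3) with an intensity trend was fitted on log2(value + 1) to these 5 libraries alone, with adjustment over 407030 windows and a threshold of 0.05, and was tested on simulated data. A log2 ratio with a pseudocount understates changes of low sites. Summaries used Python 3.11.15, pandas 2.3.3 and numpy 2.4.6.

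Sites named were the 10 higher and 10 lower within peaks, and the 5 and 5 outside, with the largest log2 ratio among sites whose libraries do not overlap and whose higher group has a mean of at least 20 scaled reads. In addition, Daxx, the 5 genes with most sites in each direction and up to 4 members per gene list were named. The 15 lists were stem cell regulators, granulocyte and monocyte, B lymphoid, T and NK lymphoid, erythroid and megakaryocyte, interferon, inflammatory, AP-1, cell cycle, H3.3 and PML, TGF-beta and BMP, Wnt, adhesion, collagen genes and loci shown by the study, and 336 of 338 symbols matched. Counts cover whole lists, of which a few members are not reported here. Members and lists were chosen with earlier results of these data known. Alternatives covered the pseudocount, a filter on low values, scaling, adjustment, peak overlap, gene assignment, single libraries and the replicate number.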

Additional observations from a re-analysis of the deposited data

Results flagged for a closer look

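Sites were picked out where the Daxx-KO libraries all stood on 1 side of the Daxx-WT libraries in KLS cells, and all on the other side at an overlapping site in the LT-HSC table of 3 d.p.i. They were sought among the named sites, the sites of the gene lists within peaks or past the test, and the sites past the test with the largest ratios. The differences between the populations were not tested.

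Among them, 2 had passed the test in KLS cells. The Mx1 site, chr16:97476151-97477950, had a log2 ratio of -1.38 in KLS cells, while the LT-HSC site inside it, of which all 700 bp overlap, held 53.8, 58.7 and 64 scaled reads in Daxx-KO against 29.3 and 30 in Daxx-WT, a log2 ratio of 0.97. The Drosha site, chr15:12858751-12859800, held 24.5, 14 and 11.3 in Daxx-KO against 48.4 and 49.3 in Daxx-WT KLS cells (-1.5, limma adjusted p = 0.0489). The LT-HSC site that overlaps it by 250 bp held 144, 178 and 199 against 58.1 and 85.6, a log2 ratio of 1.26.

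The lower site near Mctp2, chr7:71961201-71961800, held 3.34, 9.62 and 5.64 scaled reads in Daxx-KO against 23.7 and 25.2 in Daxx-WT KLS cells, a log2 ratio of -1.82. The LT-HSC site that overlaps it by 250 bp held 156, 194 and 231 against 105 and 115 (0.81), and a peak summit of KLS cells lay outside the KLS site. Lower ratios in KLS cells also stood beside higher ones in LT-HSCs at Hoxb4 (-0.78 and 0.71), Tcf7 (-0.64 and 0.86) and a site of Tgfbr3 (-0.79 and 0.64). The reverse was seen at the Ccnd3 site without printed sequence (0.69 in KLS cells and -0.87 in LT-HSCs) and at the Smad7 site that had not passed (0.95 and -0.91). Except at Mx1 and Tcf7, the KLS and LT-HSC sites shared 200 to 350 bp.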

How the results depend on the processing

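The number of sites past the test changed under each alternative tried, from 593 to 394 with a pseudocount of 0.5, 11257 with a pseudocount of 5, 199 among sites with a mean of at least 20 scaled reads, 115 with scaling by mean reads per window and 17267 with adjustment over listed sites alone. limma with voom weights on recovered reads, added after the data were seen, gave 11375. Leaving out single libraries gave 0 to 530. The 2 counts of 0, without Daxx-KO replicate 1 and without replicate 3, stood beside 17266 and 17049 sites at an unadjusted p below 0.05, and the smallest adjusted p were 0.084 and 0.216. With Daxx-WT replicate 1 or 2 left out, the lone Daxx-WT library is assumed to vary like the Daxx-KO libraries. With the replicate number as a block, 1704 sites passed, 949 higher and 755 lower. The numbers share only a name, since the deviations of same-numbered libraries correlated at 0.008 and 0.052, and Daxx-KO replicate 3 had a block of its own and added nothing. Where counts moved, the cause was not tested.

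The order of higher and lower sites past the test turned with the pseudocount of 5 (2233 higher, 9024 lower), with voom weights (2383, 8992) and with adjustment over listed sites alone (3268, 13999). Requiring 50% of a site in a peak left 516 sites lower within peaks, a mean of at least 20 left 4667 lower outside peaks, and single libraries moved the 4 counts by at most 2. Genes assigned within 10 kb numbered 624 and 353 with higher sites within and outside peaks and 598 and 4236 with lower ones, and 3328 genes had a site lower outside peaks at a mean of at least 20. Of the 60 counts of the gene lists, 35 moved with 10 kb, 16 with gene body assignment and 11 with the filter. None of the 89 named sites turned direction. Their log2 ratios moved beyond the replicate spread at 14 with a pseudocount of 5, at 67 with the other scaling, and at 11 without either Daxx-WT library. Depth limits the precision of the sites lower outside peaks, of which 63.1% had a mean below 20 scaled reads.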
